A study of Homo sapiens with 18 samples.

Results

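The genes described here are the 10 human genes that code for the calcium pumps, calcium release channels and store-operated entry machinery of the ER. They were chosen by name, with earlier results of these data known. They are the pumps ATP2A2 and ATP2A3 and the IP3 receptors ITPR1, ITPR2 and ITPR3. The calcium sensors STIM1 and STIM2 and the entry channels ORAI1, ORAI2 and ORAI3 complete them. All 10 have a row in the deposited gene table, which holds 25435 rows, and all 10 passed the filter on low counts in each of the 11 comparisons made. RNA-Seq was performed on the HEK293doxERN2 line, human embryonic kidney cells that express Flag-tagged human ERN2 when given doxycycline. Doxycycline was present over 24 hours at 0, 10 or 100 ng/mL (no, low or high ERN2), and the cells received for 3 hours either DMSO vehicle (control) or 200 nM thapsigargin (stress), in 6 groups of 3 libraries. All 6 groups carry the transgene, and there is no group of doxycycline-treated cells without it, so effects of doxycycline and of ERN2 cannot be told apart. The labels give 3 numbered replicates a group and do not say whether they were separate cultures, so p-values measure the spread between these libraries.

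The ER holds calcium at a far higher concentration than the cytosol. SERCA pumps load it, IP3 receptors release it when phospholipase C makes IP3, and STIM proteins in the ER membrane sense the loss and open ORAI channels in the plasma membrane to let calcium back in. Thapsigargin blocks SERCA pumps, so the store empties through its leak, calcium-dependent chaperones in the ER lumen lose their ion and the unfolded protein response begins. ERN2 is one of the sensors of that response, a relative of ERN1 found in mucus-secreting epithelium.

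Library totals ran from 14876416 to 24652240 counted reads, and levels below are CPM (counts brought to a common library size by the TMM method over all 18 libraries). In control cells ERN2 was at 7.79 ± 1.27 CPM (SD, n = 3) when uninduced, 35.2 ± 18.1 with the low dose and 270.0 ± 34.1 with the high dose, and DDIT3, a transcription factor of ER stress, was higher in every thapsigargin library than in every DMSO library (81.2 to 159.6 against 9.17 to 17.7 CPM). All 6 of 6 markers of the embryonic kidney line were above 1 CPM in every group, with summed levels of 149 to 243 CPM, while of 8 colon epithelium markers only CDX2 was above 1 CPM (3.36 to 8.83 CPM). The labels' extraction text names colon crypt cells although the labelled material is HEK293. Some libraries stood apart. At 10 ng/mL the replicates numbered 3 had the most ERN2 in both treatments (55.9 CPM with DMSO and 111.5 CPM with thapsigargin). Of the 100 ng/mL groups, the thapsigargin replicate 1 had 271.9 CPM of ERN2, against a lowest value of 174.9 CPM in its group. Results that rest on these libraries are given with and without them.

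The 10 genes differed widely in level. Per kilobase of merged exons, ATP2A2, which codes for the SERCA2 pump, stood first at 91.3 ± 6.37 CPM per kb (SD, n = 3) in control cells without doxycycline. STIM1 followed at 20.3 ± 1.07 and ITPR3 at 13.7 ± 1.05 CPM per kb. Next came STIM2 at 9.45 ± 1.17, ORAI1 at 9.33 ± 0.548 and ITPR2 at 8.20 ± 0.887 CPM per kb, 3 neighbours whose library ranges overlapped. ORAI2 at 5.03 ± 0.37 and ORAI3 at 4.68 ± 1.18 CPM per kb also overlapped. ITPR1 was ninth at 1.84 ± 0.156 CPM per kb, and ATP2A3, which codes for the SERCA3 pump, was last at 0.918 ± 0.304 CPM per kb, on 55 to 119 reads a library. ATP2A2, ITPR1 and ATP2A3 kept ranks 1, 9 and 10 in all 6 groups. STIM1 went from rank 2 without doxycycline to rank 5 at 100 ng/mL with DMSO and rank 6 at 100 ng/mL with thapsigargin.

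**Figure D1:**
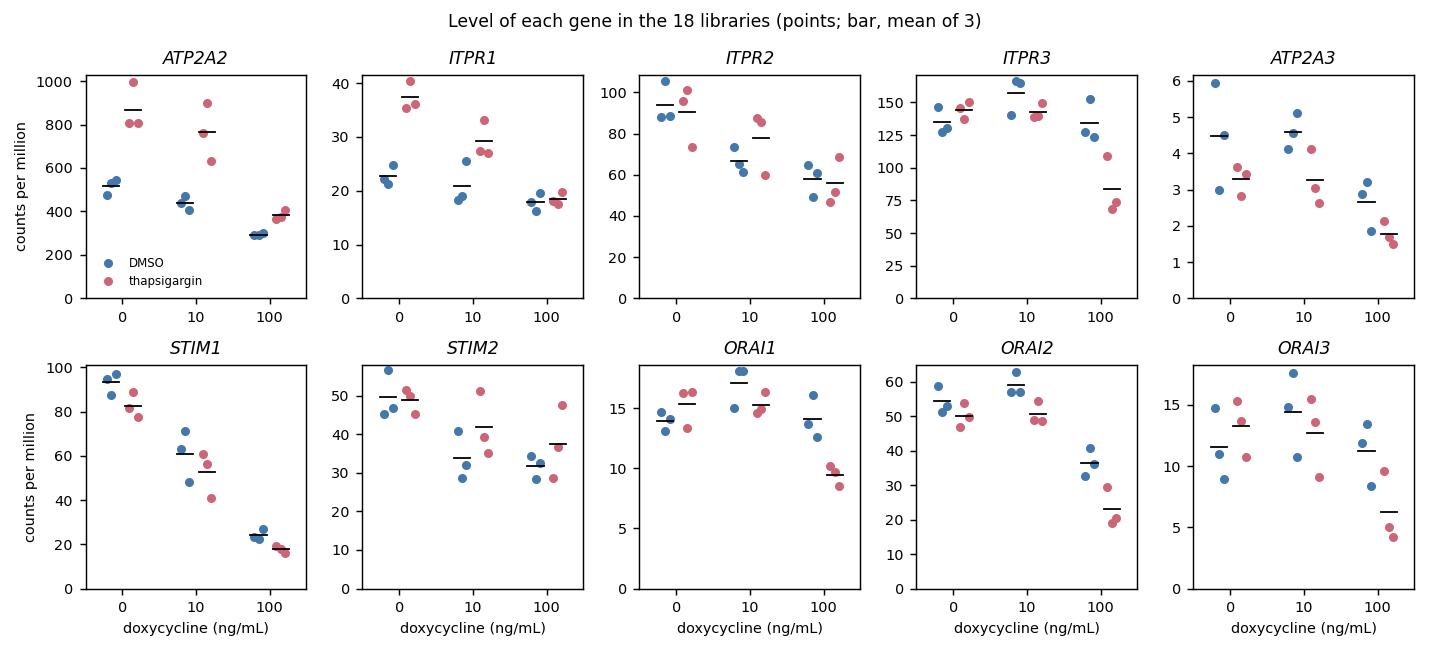
Level of each of the 10 genes in CPM (vertical axis, from 0, a scale of its own per panel) at 0, 10 and 100 ng/mL doxycycline, with DMSO in blue and thapsigargin in red. Points are single libraries and bars the mean of 3. ATP2A2 with thapsigargin lies above DMSO at each dose, and STIM1 falls from between 77.6 and 97.2 CPM at 0 ng/mL to between 16.2 and 26.7 CPM at 100 ng/mL.

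ATP2A2 spans 110280756 to 110351093 on the plus strand of chromosome 12 and ITPR1 spans 4493345 to 4847840 on the plus strand of chromosome 3 (GRCh38, GENCODE 29 annotation). STIM1 lies at 3854527 to 4093210 on the plus strand of chromosome 11, and ORAI2 at 102433106 to 102456821 on the plus strand of chromosome 7. Gene counts add up reads over a gene's exons and do not separate isoforms. ORAI3 shares 1135 exonic bases, 46.0% of its own, with a processed transcript on the same strand (AC135048.1). How reads in that stretch were counted is not given, so the level of ORAI3 is uncertain. ORAI2 shares 584 exonic bases (5.40%) with ALKBH4 on the opposite strand, and ITPR1 shares 344 (2.79%) with an antisense transcript. How the counting treated strand is not given in the sources used here, so reads in those stretches are uncertain.

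Which of these genes responded to thapsigargin was asked first in cells without doxycycline. ATP2A2 and ITPR1 rose, and the other 8 genes did not pass the test. ATP2A2 was at 477, 530.1 and 545.9 CPM with DMSO and at 807, 995 and 805 CPM with thapsigargin. No thapsigargin library came near the DMSO range, and the log2 fold change was 0.76 (SE 0.11, edgeR adjusted p = 0.000582), or 1.69-fold. ITPR1, the least abundant IP3 receptor, was at 22.1, 21.2 and 24.9 CPM with DMSO and at 35.5, 40.4 and 36.2 CPM with thapsigargin. Its groups were also well apart, with a log2 fold change of 0.73 (SE 0.12, adjusted p = 0.00124), or 1.66-fold. With a threshold of 0.01 on the adjusted p, 2 of 10 genes passed, both higher, where 11.2% of all 14397 genes tested passed and 6.45% passed as higher. The median log2 fold change of the 10 genes was 0.0484, against -0.00657 over all genes tested.

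The other IP3 receptors gave no such separation in these cells. ITPR3 was at 146.7, 127.5 and 130.2 CPM with DMSO and 145.4, 137.1 and 150.2 CPM with thapsigargin, and ITPR2 at 87.8, 105.7 and 88.4 CPM against 96.0, 101.3 and 73.6 CPM. Their ranges overlapped, as did those of STIM2, ORAI1, ORAI2, ORAI3 and ATP2A3. STIM1 was between 87.8 and 97.2 CPM with DMSO and between 77.6 and 88.9 CPM with thapsigargin, also overlapping. Leaving out each of the 6 libraries in turn kept both calls, with adjusted p of at most 0.00647 for ATP2A2 and 0.00949 for ITPR1.

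A pair of short promoter stretches is shown because, of all genes tested, CALR, the gene for the ER calcium-binding chaperone calreticulin, had the pattern most like that of ATP2A2 over the 18 libraries (given further on). Factors of the unfolded protein response are known to bind the ER stress response element (ERSE), here searched on both strands as CCAAT and CCACG with 9 bases between them. Capitals mark the CCAAT end and the CCAC-containing end of each match, with 5 bases on either side, read 5′ to 3′ in the direction of the motif.
ATP2A2, chr12:110281179-110281207, plus strand: ctcggCCAATgagcggcgtCCACAtgccg
CALR, chr19:12938379-12938407, minus strand: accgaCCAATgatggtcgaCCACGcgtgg
The sequences are from RefSeq promoter entries of GRCh38.p14. CALR held the full motif, and 0.0740% of 35116 promoter windows of 250 bases did. ATP2A2 held it in a form whose last base is free, 63 to 45 bases before 1 of its annotated starts. That looser form, added after the ATP2A2 sequence was seen and including every full match, is found in 0.282% of windows. ORAI2 held a UPRE core (TGACGTGG, found in 0.612% of windows) 147 to 140 bases before an annotated start, shown with 5 bases on either side and the core in capitals.
ORAI2, chr7:102433423-102433440, plus strand: gcgggTGACGTGGccgcg
The starts referred to for ATP2A2 and ORAI2 lie inside the gene spans given above, and so do both matches. Whether these elements have a part in the levels of ATP2A2, CALR or ORAI2 was not tested. Promoter entries were found for 7 of the 10 genes, in 11 windows, and not for ATP2A3, ITPR2 and ORAI1. The full ERSE, ERSE-II (ATTGG and CCACG with 1 base between them), CRE (TGACGTCA) and CARE (TGATG and AA with 1 base between them) were not among the letters of those 11 windows.

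At 10 ng/mL doxycycline 0 of 10 genes passed for thapsigargin against DMSO by edgeR, where 1.45% of 14607 genes did. Unadjusted, 2 of 10 had p under 0.05, as did 24.7% of all genes, and DESeq2 called 1 of 10 and 8.06% of all. ATP2A2 was at 440.8, 471.7 and 408.1 CPM with DMSO and 763, 897 and 633 CPM with thapsigargin, and the groups did not overlap. Its log2 fold change was 0.79 (SE 0.14, adjusted p = 0.0112), past the threshold by DESeq2 (adjusted p = 2.16e-05) and without the thapsigargin replicate 3 (0.91, adjusted p = 0.000891). ITPR1 was at 18.3, 19.0 and 25.6 CPM with DMSO and 27.3, 33.2 and 27.1 CPM with thapsigargin, also without overlap, at a log2 fold change of 0.47 (SE 0.17, adjusted p = 0.115). The DMSO replicate 3, at 25.6 CPM, stood closest to the thapsigargin group. With both replicates numbered 3 left out, an alternative chosen after seeing the data, ATP2A2 passed at 0.87 (adjusted p = 0.00034), 1 of 10, with 4.17% of all genes. ORAI2 was lower in every thapsigargin library (49.0, 54.5 and 48.8 CPM) than in every DMSO library (57.0, 62.8 and 57.0 CPM), and so was ATP2A3, and neither passed.

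ATP2A2 at 100 ng/mL was at 289.7, 290.1 and 298.6 CPM with DMSO and 364, 376 and 404 CPM with thapsigargin. The groups did not overlap, and the log2 fold change of 0.40 (SE 0.11, adjusted p = 0.0741) did not pass. ITPR1 libraries overlapped at this dose, between 16.3 and 19.6 CPM with DMSO and between 17.5 and 19.8 CPM with thapsigargin. In all, 0 of 10 genes passed by edgeR and 0 of 10 by DESeq2. Of all genes, 0.201% of 14427 passed by edgeR and 729 genes passed by DESeq2, whose share is not given here. Unadjusted, 6 of 10 had p under 0.05, as did 27.0% of all genes. Those 6 were ATP2A2, on the higher side, and ITPR3, STIM1, ORAI1, ORAI2 and ORAI3, on the lower side. ITPR3 was at 127.0, 152.4 and 123.7 CPM with DMSO and 108.8, 68.5 and 73.4 CPM with thapsigargin. The thapsigargin replicate 1, the library with the most ERN2 of its group, was the one closest to DMSO for ITPR3, and likewise for ORAI2 and ORAI3. Without it 17.6% of all genes passed and 3 of 10 did, ITPR3 at a log2 fold change of -0.92 (adjusted p = 0.000487), ORAI2 at -0.88 (adjusted p = 0.00126) and ORAI3 at -1.29 (adjusted p = 0.00125). The part of ERN2 level or of this library in the result was not tested.

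**Figure D2:**
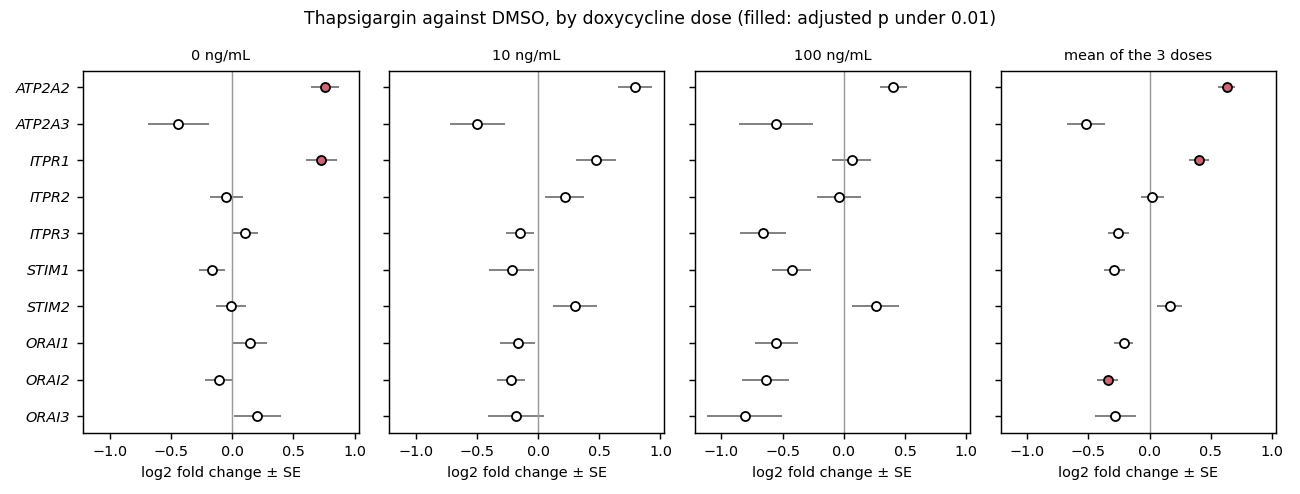
Log2 fold change of thapsigargin against DMSO (horizontal axis, ± SE) for each gene at each doxycycline dose and as the mean of the 3 doses; filled points passed an adjusted p of 0.01. ATP2A2 lies right of 0 in all 4 panels, at 0.76, 0.79, 0.40 and 0.63.

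Averaged over the 3 doses in a fit of all 18 libraries, ATP2A2 and ITPR1 rose and ORAI2 fell with thapsigargin. The means join unlike values. At 0, 10 and 100 ng/mL ITPR1 had log2 fold changes of 0.73, 0.47 and 0.07, and passed only at 0 ng/mL. ORAI2 had -0.11, -0.22 and -0.64, and passed at no single dose. ATP2A2 rose by a log2 fold change of 0.63 (SE 0.07, adjusted p = 1.35e-06) and ITPR1 by 0.40 (SE 0.08, adjusted p = 0.000809). Both calls were kept without any 1 of the 18 libraries. ORAI2, one of the entry channels, fell by 0.34 on the log2 scale (SE 0.08, adjusted p = 0.00367), a call lost without the DMSO replicate 1 of uninduced cells (adjusted p = 0.0103). Thus 3 of 10 genes passed, where 23.5% of 15023 genes did, with a median log2 fold change of -0.23 for the 10 genes and -0.03 for all genes. Close to the threshold were ATP2A3 at -0.52 (SE 0.15, adjusted p = 0.0133), STIM1 at -0.29 (SE 0.09, adjusted p = 0.0156) and ITPR3 at -0.25 (SE 0.08, adjusted p = 0.0235), which all 3 passed by DESeq2, as did 28.3% of all genes. Without the 100 ng/mL thapsigargin replicate 1, 5 of 10 genes passed, ATP2A3 (adjusted p = 0.00814) and ITPR3 (adjusted p = 0.000223) included, and 28.9% of all genes.

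The second question was how the genes varied with doxycycline dose. At 100 ng/mL with DMSO, 5 of 10 genes fell and none passed on the higher side, and 8.33% of 14444 genes passed, 7.49% on the lower side. STIM1, the main sensor of ER calcium loss, changed most of the 10. It was at 94.9, 87.8 and 97.2 CPM at 0 ng/mL and 23.4, 22.6 and 26.7 CPM at 100 ng/mL. Every 100 ng/mL library was far below every uninduced library, with a log2 fold change of -1.99 (SE 0.12, adjusted p = 3.22e-07), to 0.252 of the uninduced level. ATP2A2 went from 477 to 545.9 CPM down to 289.7 to 298.6 CPM, without overlap, a log2 fold change of -0.86 (SE 0.10, adjusted p = 5.09e-05). In bulk RNA, fewer cells with a transcript and less of it per cell cannot be told apart.

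ITPR2, STIM2 and ORAI2 were the others to fall. ITPR2 was at 87.8, 105.7 and 88.4 CPM at 0 ng/mL and 64.8, 49.0 and 60.6 CPM at 100 ng/mL, at a log2 fold change of -0.74 (SE 0.13, adjusted p = 0.0017). STIM2, the sensor that responds to smaller losses of ER calcium, was at 45.4, 56.6 and 46.8 CPM against 34.5, 28.4 and 32.6 CPM, at -0.68 (SE 0.13, adjusted p = 0.00311). ORAI2 was at 58.9, 51.2 and 53.0 CPM against 32.6, 40.8 and 36.0 CPM, at -0.62 (SE 0.13, adjusted p = 0.00539). The groups did not overlap for any of them. The STIM2 call was lost without the uninduced replicate 2 (adjusted p = 0.0136) or the 100 ng/mL replicate 3 (0.0128) and in the fit of all 6 groups (0.0139), and that of ORAI2 without the uninduced replicate 1 (0.0356) or 3 (0.0155) or the 100 ng/mL replicate 1 (0.0150) or 3 (0.0241). ORAI1, the pore of classic store-operated entry, was at 14.7, 13.1 and 14.1 CPM against 13.7, 16.1 and 12.6 CPM, with full overlap. ITPR3 and ORAI3 overlapped too, and the log2 fold changes of ATP2A3 at -0.79 (SE 0.28, adjusted p = 0.0826) and ITPR1 at -0.39 (SE 0.13, adjusted p = 0.0764) did not pass. The median over the 10 genes was -0.65, against -0.00684 over all genes.

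With thapsigargin in both groups, 100 ng/mL doxycycline again had 5 of 10 genes lower, where 10.5% of 14358 genes passed, 9.00% on the lower side. They were STIM1, ATP2A2, ITPR1, ITPR3 and ORAI2. STIM1 was at 81.6, 88.9 and 77.6 CPM at 0 ng/mL and 19.3, 17.9 and 16.2 CPM at 100 ng/mL, a log2 fold change of -2.22 (SE 0.16, adjusted p = 3.25e-06). ATP2A2, at 805 to 995 CPM against 364 to 404 CPM, fell by 1.19 on the log2 scale (SE 0.14, adjusted p = 6.62e-05). ITPR1, at 35.5 to 40.4 CPM against 17.5 to 19.8 CPM, fell by 1.02 (SE 0.16, adjusted p = 0.000576), to 0.493 of its uninduced level. For all 3 the groups were far apart, and the calls were kept without any 1 library.

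ORAI2 was at 46.8, 53.9 and 49.8 CPM at 0 ng/mL and 29.5, 18.9 and 20.6 CPM at 100 ng/mL, a log2 fold change of -1.12 (SE 0.19, adjusted p = 0.00098), lost without the 100 ng/mL replicate 2 (adjusted p = 0.0102). ITPR3 fell by 0.79 on the log2 scale (SE 0.18, adjusted p = 0.00702). That call was kept only without the 100 ng/mL replicate 1 and lost without any of the other 5 libraries (adjusted p of 0.0208 to 0.0531). Without the 100 ng/mL replicate 1, 7 of 10 genes passed, with ORAI1 at -0.75 (adjusted p = 0.00466) and ORAI3 at -1.52 (adjusted p = 3.52e-05) added, and 27.2% of all genes. Without the 100 ng/mL replicate 2, 3 of 10 and 5.23% of all genes passed. STIM2 was at 45.3 to 51.5 CPM against 28.7, 36.6 and 47.5 CPM, with overlap. The comparisons with DMSO and with thapsigargin share no library. The uninduced libraries of both treatments also entered the first comparison above, and the 100 ng/mL libraries that of thapsigargin at that dose. The mean over doses used all of them. The median over the 10 genes was -0.95 with thapsigargin, against 0.0439 over all genes.

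**Figure D3:**
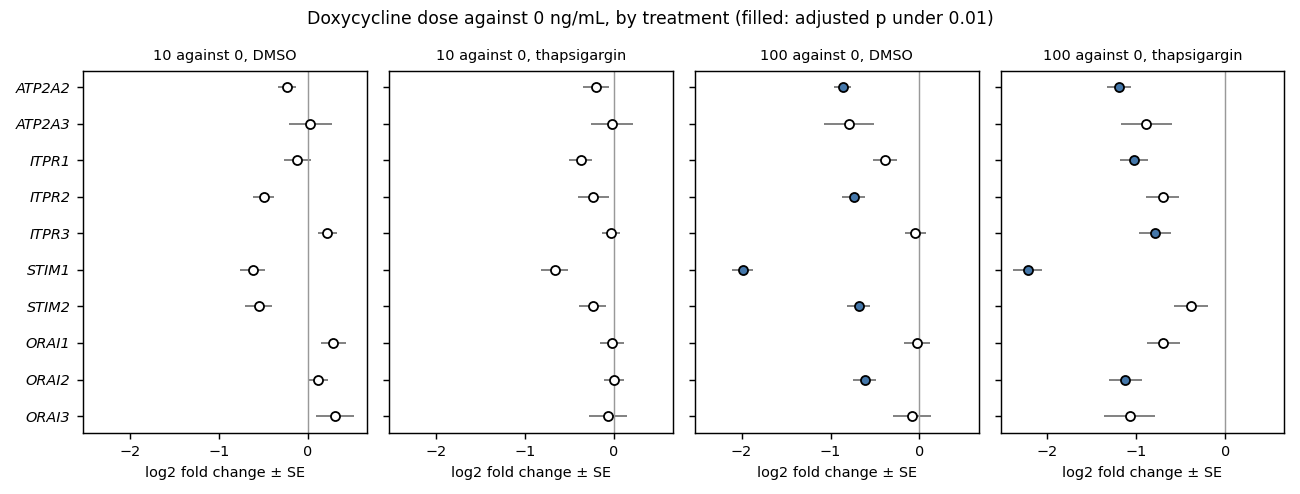
Log2 fold change of 10 or 100 ng/mL doxycycline against 0 ng/mL (horizontal axis, ± SE), with DMSO or with thapsigargin; filled points passed an adjusted p of 0.01. STIM1 is farthest left in each panel, at -0.62, -0.66, -1.99 and -2.22, and no gene is filled at 10 ng/mL.

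As the mean of both treatments in a fit of 12 libraries, 8 of 10 genes fell at 100 ng/mL, all but ORAI1 and ORAI3, where 16.1% of 14768 genes passed and 13.6% on the lower side. STIM1 had a log2 fold change of -2.13 (SE 0.09, adjusted p = 3.35e-10), ATP2A2 of -1.06 (SE 0.08, adjusted p = 7.14e-08), ORAI2 of -0.90 (SE 0.11, adjusted p = 1.44e-05) and ATP2A3 of -0.87 (SE 0.20, adjusted p = 0.0041). ITPR2 was at -0.75 (SE 0.12, adjusted p = 0.000286), ITPR1 at -0.73 (SE 0.09, adjusted p = 1.91e-05), STIM2 at -0.56 (SE 0.12, adjusted p = 0.00253) and ITPR3 at -0.45 (SE 0.10, adjusted p = 0.00538). The call of ITPR3 was lost in 10 of the 12 fits that leave out 1 library, all but those without the 100 ng/mL DMSO replicate 2 or thapsigargin replicate 1 (adjusted p of up to 0.0339). ATP2A3, counted on as few as 24 reads, lost its call in 6 of 12, those without the uninduced DMSO replicate 1 or 3 or thapsigargin replicate 1, or the 100 ng/mL DMSO replicate 3 or thapsigargin replicate 2 or 3 (adjusted p of up to 0.0210). ORAI1 at -0.39 (SE 0.10, adjusted p = 0.0108) passed without the 100 ng/mL DMSO replicate 2 (adjusted p = 0.0081), by DESeq2 (0.00836) and in the fit of all 6 groups (0.00595). ORAI3 at -0.61 (SE 0.20, adjusted p = 0.0386) passed without the 100 ng/mL thapsigargin replicate 1 (-0.81, adjusted p = 0.00142) and with the replicate block (-0.62, adjusted p = 0.00418). The other 6 calls were kept in all 12 fits.

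At 10 ng/mL fewer genes passed, in comparisons that share their uninduced libraries with those of 100 ng/mL. With DMSO 0 of 10 genes passed by edgeR and 2 of 10 by DESeq2, where 0.193% of 14497 genes passed by edgeR and 3.32% by DESeq2. Unadjusted, 4 of 10 had p under 0.05, all lower, as did 30.5% of all genes, 16.5% on the lower side. STIM1 was at 63.3, 71.2 and 48.1 CPM, below every uninduced library, at a log2 fold change of -0.62 (SE 0.14, adjusted p = 0.0635). STIM2 at 40.8, 28.6 and 32.0 CPM was at -0.55 (SE 0.15, adjusted p = 0.0787) and ITPR2 at 73.4, 65.1 and 61.4 CPM at -0.50 (SE 0.12, adjusted p = 0.0714), both also below their uninduced ranges. ATP2A2 was at -0.24 (SE 0.10, adjusted p = 0.134). Without the 10 ng/mL DMSO replicate 1, STIM1, STIM2 and ITPR2 passed (adjusted p of 0.00294, 0.00138 and 0.00211), as did 18.8% of all genes.

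With thapsigargin, 10 against 0 ng/mL gave 0 of 10 genes by edgeR and by DESeq2, where edgeR passed 0% of 14509 genes, with 612 genes (4.22%) at an unadjusted p under 0.05 and 39 called by DESeq2. In this comparison same-numbered libraries deviated together, and with the replicate number as a block 2 of 10 genes and 564 genes in all (3.89%) passed. The block was chosen from these same data, and the labels do not say that the numbers pair libraries. STIM1, at 60.8, 56.3 and 40.9 CPM and below every uninduced library, was at a log2 fold change of -0.66 (SE 0.15, adjusted p = 0.483) unblocked and -0.67 (adjusted p = 1.04e-05) with the block. ITPR1 was at -0.37 (adjusted p = 0.978) unblocked and -0.37 (adjusted p = 0.00491) with the block. In both treatments the 10 ng/mL replicate 3, highest in ERN2, was the lowest in STIM1. Without it the log2 fold change of STIM1 was -0.48 (adjusted p = 0.213) with DMSO and -0.50 (adjusted p = 0.601) with thapsigargin. The part of its ERN2 level in that was not tested.

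Whether the response to thapsigargin itself differed with dose was tested as an interaction. At 10 ng/mL 0 of 10 genes passed by edgeR or DESeq2 and 0 of 10 had an unadjusted p under 0.05, where edgeR passed 0% of 14857 genes, with 664 (4.47%) at an unadjusted p under 0.05 and 2 called by DESeq2. The high dose also gave 0 of 10 by either tool, where 0.0406% of 14768 genes passed by edgeR and 340 genes passed by DESeq2. Unadjusted, 4 of 10 had p under 0.05, each with a lower response at 100 ng/mL, as did 24.7% of all genes, 9.15% with a lower response. These were ITPR1 at -0.58 (SE 0.18, adjusted p = 0.0946), ITPR3 at -0.69 (SE 0.21, adjusted p = 0.0924), ORAI1 at -0.61 (SE 0.20, adjusted p = 0.103) and ORAI3 at -0.93 (SE 0.40, adjusted p = 0.169). Without the 100 ng/mL thapsigargin replicate 1, ITPR3 (-0.97, adjusted p = 0.00211) and ORAI3 (-1.44, adjusted p = 0.00783) passed, as did 8.60% of all genes. That the response of ATP2A2 or ITPR1 was weaker at 100 ng/mL was therefore not shown, since neither interaction passed. Nor was an equal response shown. In simulated data with 200 changed genes, this test passed 0% of genes changed 1.5-fold and 23.5% of genes changed 2-fold. Those data held no effects shared within a library, so the shares may differ here.

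The genes did not vary as one group across the 18 libraries. As a description, the Pearson correlation of log2 CPM was 0.947 between ITPR3 and ORAI1, 0.923 between ITPR3 and ORAI2, and 0.921 between ATP2A2 and ITPR1, while it was -0.0117 between STIM2 and ORAI1 and -0.00024 between ITPR3 and STIM2. These points share dose, treatment and library. The genes most like each member were sought among 15023 genes by the same measure over 18 libraries. CALR was the nearest to ATP2A2 (0.990, or 0.867 and rank 10 with group means subtracted), followed by the amino acid carrier gene SLC1A4 (0.974) and the zinc carrier gene SLC39A14 (0.967). ERN1 was nearest to ITPR1 (0.953, or 0.598 and rank 106 with group means subtracted). SLC39A14 was second (0.932, or 0.442 and rank 564). FBLN1 (0.993) and FN1 (0.992), which code for extracellular matrix proteins, were nearest to STIM1, FKBP10 to ORAI2 (0.992), SC5D to STIM2 (0.952) and SLC27A3 to ATP2A3 (0.947). ITPR2 was most like ATP2B1 (0.979), which codes for a plasma membrane calcium pump.

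Among 79 other calcium genes in 10 lists, 69 were tested. In the mean over doses, 6 rose and 9 fell with thapsigargin, 21.7% called against 23.5% of all genes. The list labelled ER lumen calcium binders gave 4 of the 6, with 0 of 11 lower. That list also holds genes of Golgi proteins, NUCB1 and SDF4 among them. HSPA5, the chaperone BiP, rose by a log2 fold change of 2.07 (SE 0.10, adjusted p = 4.12e-11), PDIA4 by 1.33 (SE 0.09, adjusted p = 2.92e-09) and HSP90B1 by 0.98 (SE 0.11, adjusted p = 2.72e-06), against the 0.63 of ATP2A2. CALR, the fourth, rose by 0.87. The phospholipase C genes PLCD1 at 0.68 and PLCE1 at 0.37 were the other 2 to rise, of 10 tested. On the lower side were 3 of 8 partners of store-operated entry, TMEM178A at -0.81, ESYT1 at -0.56 and STIMATE at -0.54. So were 2 of 5 ER calcium leak genes, GRINA at -0.54 and TMBIM6 at -0.50. Of 10 genes listed as IP3 receptor partners 2 were lower, ERLIN2 at -0.45 and ITPRIPL2, named for its likeness to ITPRIP, at -0.30. C4orf3, which codes for a small SERCA regulator, at -0.56 and the plasma membrane pump gene ATP2B4 at -0.49 were also lower.

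In the mean of both treatments, 100 against 0 ng/mL, 1 of 69 rose and 22 fell, 33.3% called against 16.1% of all genes, 13.6% on the lower side. C4orf3 rose by 0.57 on the log2 scale. In the list labelled ER lumen calcium binders 5 of 11 fell, RCN2 at -2.36, CALR at -1.62 and the Golgi protein gene NUCB1 at -1.29 the farthest. Of the other pumps and exchangers 4 of 8 fell, with ATP2B4 at -1.71, ATP2C1, the Golgi calcium pump, at -1.15 and ATP2B1 at -1.15. Of genes listed as IP3 receptor partners 5 of 10 fell, ITPRIP at -0.56 and ERLIN1 at -0.46 among them. Of ryanodine receptors 2 of 3 fell, RYR1 at -0.84 and RYR2 at -0.72. The 3 of 8 store-operated entry partners that fell were ESYT1 at -1.48, STIMATE at -0.72 and SARAF, an inhibitor of store-operated entry, at -0.59. Of the 5 ER calcium leak genes, GRINA at -0.82 and TMBIM6 at -0.26 fell, the latter a call lost in 14 of 18 alternatives. None of 10 phospholipase C or 4 IP3 metabolism genes passed in this edgeR fit. The median of the 69 was -0.20, against -0.74 for the 10 genes and 0.03 for all genes tested. Taken singly, 2 of 69 rose and 12 fell with DMSO, 20.3% called against 8.33% of all genes. With thapsigargin 1 rose and 16 fell, 24.6% called against 10.5%. The mean can hide opposite changes. HSPA5 was at 0.84 with DMSO and -0.80 with thapsigargin, and PDIA4 at 0.53 and -0.93, all called. ITPRIP, SARAF and C4orf3 passed only with thapsigargin, at -1.09, -0.93 and 0.97, against 0.03, -0.18 and 0.23 with DMSO.

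**Figure D4:**
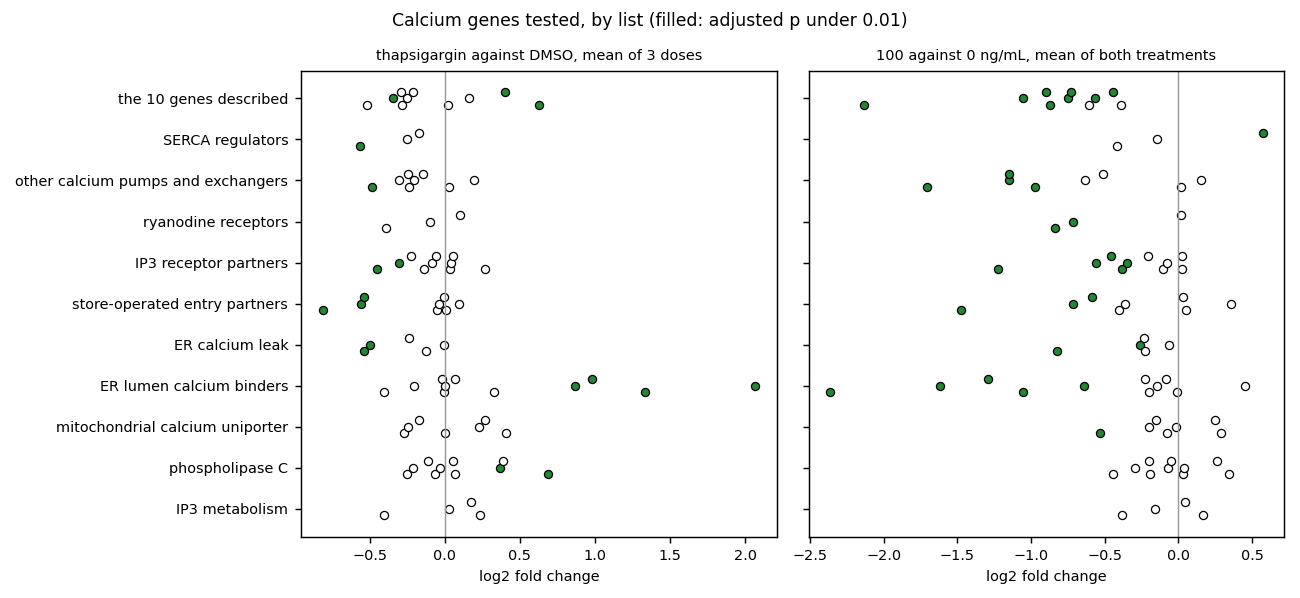
Log2 fold change (horizontal axis) of the 10 genes and of the 69 other calcium genes tested, 1 point a gene and 1 row a list; left, thapsigargin against DMSO as the mean of 3 doses, and right, 100 against 0 ng/mL doxycycline as the mean of both treatments. Filled points passed an adjusted p of 0.01; HSPA5 is farthest right in the left panel at 2.07 and RCN2 farthest left in the right panel at -2.36.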

How the data were processed

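RNA-Seq libraries were prepared with a stranded kit and sequenced as single-end reads of 75 cycles per the labels. VIPER, the pipeline the authors ran, aligned the reads with STAR, and the deposited counts are raw totals per gene symbol, and the submitters' processing notes name hg38. Versions, annotation and strand setting are not given in the sources used here. Groups came from the labels. Counts were filtered (filterByExpr, minimum count 10), scaled by TMM, and fitted by the quasi-likelihood method of edgeR 4.0.16 in R 4.3.3 to the groups compared. P-values were adjusted over the whole set of genes kept (Benjamini-Hochberg), at the study's threshold of 0.01. Symbols were matched to GENCODE 29. The scripts were tested on simulated data with 200 changed genes and no effects shared within a library, so shares in the real data may differ. Of genes changed 1.5-fold, 22.5% passed for thapsigargin without doxycycline and 18% for 100 against 0 ng/mL with DMSO. For 2-fold changes these shares were 94% and 92.5%. In the mean of 3 doses 76.5% and 99.5% passed, and in the 100 ng/mL interaction 0% and 23.5%. Alternatives were DESeq2 1.42.0, RLE size factors, no filter, a fit of all 6 groups, a replicate block, an adjusted p of 0.05 and each library left out. DESeq2 tested a set of genes of its own, so its counts given without a share cannot be set against the edgeR shares. The members and lists were chosen with earlier results of these data known. Text names the 10 genes, ERN2 and 3 stress genes, up to 3 called genes of each list and the 3 genes most like each called member, and a few results under this rule are not reported here.

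The labels share replicate numbers without saying that a number marks a day or culture. For 10 against 0 ng/mL with thapsigargin, same-numbered libraries' deviations from their group means correlated at 0.40, 0.34 and 0.47, all over 0.1, so the block is printed there. In no other of the 7 comparisons of 2 groups were all 3 above 0.1. With 3 libraries a group the smallest two-sided p of an exact permutation test is 0.10, and none was used. Replicates differed by more than sampling noise (chi-square per degree of freedom 7.33 to 63.8), so none was merged. Depth was 14876416 to 24652240 counts, and ATP2A3 had the fewest reads of the 10 genes, 24 to 119 a library.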

Additional observations from a re-analysis of the deposited data

Results flagged for a closer look

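For none of the 10 calcium genes did a difference in thapsigargin response between doses pass the edgeR interaction test. At 100 ng/mL that test passed 23.5% of 2-fold changes in simulated data, so this does not show equal responses. Of the genes named beside them, 3 passed at 100 against 0 ng/mL, each with a smaller rise at the high dose. HERPUD1, an ER membrane protein of the unfolded protein response, had an interaction of -1.21 on the log2 scale (SE 0.16, adjusted p = 0.00741). PDIA4 was at -1.40 (SE 0.19, adjusted p = 0.00897) and HSPA5 at -1.58 (SE 0.22, adjusted p = 0.00897), where ATP2A2 was at -0.27 (SE 0.15, adjusted p = 0.28). HSPA5 went from 502.7 ± 34.0 to 3638 ± 983 CPM (SD, n = 3) without doxycycline and from 928.5 ± 59.8 to 2099 ± 164 CPM at 100 ng/mL, the DMSO level at the high dose being above that of uninduced cells. Each of the 3 calls was lost in 9 of 18 alternatives.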

How the results depend on the processing

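For the 10 genes, no log2 fold change with an unadjusted p under 0.05 turned its direction under the alternatives run. Counts of calls did move. ATP2A3 had the fewest reads of the 10 genes, 24 to 119 a library. Gene medians moved by less than 0.1 on the log2 scale under another scaling.

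In what follows, the first number is the count among the 10 genes and the count of all genes comes after it, where either moved by over 1.5 times. For thapsigargin against DMSO without doxycycline, all genes called numbered 1611, and 3260 at an adjusted p of 0.05. At 10 ng/mL the 0 genes and 212 in all became 1 and 1051 by DESeq2, 1 and 529 with no filter on low counts, 1 and 676 in the fit with all 6 groups, 1 and 1009 at an adjusted p of 0.05, and 1 and 612 with both libraries numbered 3 left out. At 100 ng/mL the 0 and 29 became 3 and 941 with all 6 groups (ITPR3, ORAI1 and ORAI2), while all genes numbered 729 by DESeq2 (261 higher and 468 lower, against 26 and 3), 299 with no filter and 494 at 0.05. As the mean of 3 doses, the 3 genes became 6 by DESeq2 and 7 at 0.05, with 5500 in all.

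For 10 against 0 ng/mL with DMSO, the 0 and 28 became 2 and 382 by DESeq2 (107 higher and 275 lower, against 20 and 8) and 1 and 623 with no filter, with 3 in all in the fit of all 6 groups and 110 at 0.05. With thapsigargin the 0 in all became 39 by DESeq2 and 1 with no filter. With DMSO and 100 ng/mL, 2063 in all passed at 0.05. With thapsigargin the 5 and 1512 became 8 and 2318 by DESeq2 (685 higher and 1633 lower, against 220 and 1292), 8 and 2641 with all 6 groups, and 9 and 3018 at 0.05. In the mean of both treatments 3581 in all passed at 0.05, DESeq2 called 935 higher and 2115 lower (against 363 and 2008), and ITPR3 lost its call with RLE size factors (adjusted p = 0.0116). Of the interaction at 10 ng/mL, 2 in all passed by DESeq2 and 1 with no filter, with all 6 groups or at 0.05. At 100 ng/mL the 6 in all became 340 by DESeq2 (137 higher and 203 lower, against 1 and 5), 14 with RLE size factors, 86 with no filter, 35 with all 6 groups and 149 at 0.05.

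Smaller moves among the 10 genes were these. STIM2 lost its call for 100 against 0 ng/mL with DMSO in the fit of all 6 groups (adjusted p = 0.0139). With thapsigargin, no filter added ITPR2 (0.00476) and ORAI3 (0.00126) and the replicate block ORAI3 (0.00224). In the mean of both treatments DESeq2 (0.00836) and all 6 groups (0.00595) added ORAI1, the block ORAI3 (0.00418), and 10 of 10 passed at 0.05. In the mean of 3 doses the block added ATP2A3 (0.00883).

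The replicate block was set beside the report's values for 10 against 0 ng/mL with thapsigargin, where same-numbered libraries deviated together. It was also given for ORAI3 in the mean of both treatments. The block gave 3571 genes in all for thapsigargin without doxycycline, 2 genes and 3620 in all at 10 ng/mL (ATP2A2 and ITPR1), and 4 in all at 100 ng/mL. For 10 against 0 ng/mL it gave 124 in all with DMSO, and 2 genes and 564 in all with thapsigargin. For 100 against 0 ng/mL with DMSO it gave 2 genes and 750 in all, with ITPR2 (adjusted p = 0.0196), STIM2 (0.0306) and ORAI2 (0.0415) lost. It gave 1 in all for the interaction at 10 ng/mL and 3 at 100 ng/mL. As a hint from the data, each library was closest to the one with its own number in 6 of 6 cases for 10 against 0 ng/mL with thapsigargin, and in 1 to 5 of 6 in the other comparisons of 2 groups.

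With 1 library left out, counts among the 10 genes ran from 0 to 1 (thapsigargin at 10 ng/mL), 0 to 3 (at 100 ng/mL), 2 to 5 (mean of doses), 0 to 3 (10 against 0 ng/mL, DMSO), 3 to 5 (100 against 0 ng/mL, DMSO), 3 to 7 (the same with thapsigargin) and 0 to 2 (interaction at 100 ng/mL). The share of all genes moved too. Without the 100 ng/mL thapsigargin replicate 1 it went from 0.201% to 17.6% (thapsigargin at 100 ng/mL) and from 23.5% to 28.9% (mean of doses). It went from 10.5% to 27.2% for 100 against 0 ng/mL with thapsigargin and from 0.0406% to 8.60% for the interaction. For 100 against 0 ng/mL with DMSO the range of all genes is not given here. Counts of all genes ran from 731 to 1901 for thapsigargin without doxycycline, between 28 and 494 with the low dose and between 4 and 2568 with the high dose. They ran from 0 to 2743 for 10 against 0 ng/mL with DMSO, from 763 to 3950 for 100 against 0 ng/mL with thapsigargin and from 2 to 1286 for the interaction at 100 ng/mL, and the highest counts of the latter 2 and of thapsigargin at 100 ng/mL came without the 100 ng/mL thapsigargin replicate 1. The causes were not tested. With group means subtracted, the 24 correlations of a gene with its nearest others ran from 0.442 to 0.965.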
